A study of Homo sapiens with 2 samples.

Results

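The 3 Ikaros family loci were examined for accessible chromatin in 2 human T-cell acute lymphoblastic leukaemia (T-ALL) lines, Jurkat and RPMI-8402. The members are all called peaks whose summit, the highest base of a peak, falls in a fixed window around IKZF1, IKZF2 or IKZF3. The windows are positions 50300000 to 50520000 of chromosome 7, 213800000 to 214120000 of chromosome 2 and 37900000 to 38040000 of chromosome 17, all on hg19. The rule uses positions alone. The rule found 33 peaks of 49792 in both lists, 22 of 25189 in Jurkat and 11 of 24603 in RPMI-8402.

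Accessibility was measured by ATAC-seq, in which the transposase Tn5 cuts open DNA and tags it for sequencing. Both established lines were grown in the same medium with tetracycline-free serum and Pen/Strep, and the labels name no treatment. Each line gave 1 library, so no value carries a replicate error and nothing was tested between the lines. All intervals cover counting error only, and copies made by PCR would make them too narrow. Whether the T-cell marker genes are accessible was not analysed here, because no hg19 annotation of them was used.

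The genes encode Ikaros (IKZF1), Helios (IKZF2) and Aiolos (IKZF3), zinc-finger proteins that bind DNA through one set of zinc fingers and pair with each other through another. They recruit chromatin-remodelling and repressor complexes and set the timing of lymphocyte development. Ikaros acts from early progenitors onward and is lost or truncated in many lymphoid leukaemias. Helios is known from T-cell precursors and regulatory T cells, and Aiolos rises late in the maturation of B cells and in some mature T cells. Lenalidomide and related drugs direct Ikaros and Aiolos to degradation.

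The reference bases just before the annotated starts of IKZF1 and IKZF2 are shown because the peaks at these gene starts are the ones compared first. They were taken from RefSeq on GRCh38.p14, in which 2 of the 3 genes matched, and each run is the 250 bases before a start, 5′ to 3′ on the gene's strand. Capitals mark GGGAA, the core that Ikaros proteins bind, or its reverse complement TTCCC, with both strands searched and overlapping matches allowed. The peaks are on hg19 and no position was carried between the builds, so whether a peak covers any of these bases was not determined. The IKZF2 span also differs, with 151923 bases as given with the windows and 152759 in RefSeq on GRCh38.p14.
IKZF1 first start, plus strand, chr7:50304466-50304715: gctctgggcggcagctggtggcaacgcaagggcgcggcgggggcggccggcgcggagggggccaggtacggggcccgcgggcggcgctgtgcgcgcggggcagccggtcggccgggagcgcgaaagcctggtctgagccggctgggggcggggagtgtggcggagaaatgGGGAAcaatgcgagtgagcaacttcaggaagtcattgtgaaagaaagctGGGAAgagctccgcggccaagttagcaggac
IKZF2 outermost start, minus strand, chr2:213152457-213152706: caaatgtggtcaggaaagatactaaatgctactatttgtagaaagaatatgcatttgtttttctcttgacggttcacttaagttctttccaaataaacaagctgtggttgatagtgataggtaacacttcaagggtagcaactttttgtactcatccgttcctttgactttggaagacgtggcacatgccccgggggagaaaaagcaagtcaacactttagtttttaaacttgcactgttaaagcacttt
IKZF2 inner start, minus strand, chr2:213150438-213150687: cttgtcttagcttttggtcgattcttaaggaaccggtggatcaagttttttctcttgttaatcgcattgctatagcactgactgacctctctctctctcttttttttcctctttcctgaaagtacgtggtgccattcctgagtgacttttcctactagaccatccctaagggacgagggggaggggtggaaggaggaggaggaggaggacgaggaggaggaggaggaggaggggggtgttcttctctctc
The IKZF1 run was 71.2% G and C with 28 CpG pairs, and it held 2 matches to the core. The other annotated IKZF1 starts, which lie further along the gene and are not printed, were 45.2% and 32.8% G and C before the start, with 3 and 0 CpG pairs and 2 and 0 matches. The IKZF2 runs were 38.0% and 50% G and C with 4 and 6 CpG pairs, and neither held a match. Over all 35116 RefSeq windows of the same length the median was 58.0% G and C with 11 CpG pairs. Of these windows, 59.0% held at least 1 match and 24.1% at least 2. A match is a run of letters and not a measured binding site.

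Jurkat had more called peaks at each locus, and nearly all RPMI-8402 peaks lay where Jurkat also had one. The window of IKZF1 held 9 peaks in Jurkat against 4 in RPMI-8402, that of IKZF2 held 11 and 6, and that of IKZF3 held 2 and 1. Over the 3 loci the ratio of peak numbers was 2.0 (95% exact conditional binomial interval 0.930 to 4.57), against 1.02 for the whole lists. The interval treats called peaks as independent counts and describes these 2 libraries only. With peaks of −log10 q of at least 10 alone, the numbers were 14 and 11, and IKZF3 held 1 peak in each line.

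Of the 22 Jurkat peaks, 12 (54.5%, exact 95% binomial interval 32.2 to 75.6%) had no RPMI-8402 peak overlapping them, while 32.6% of all Jurkat peaks had none. Of the 11 RPMI-8402 peaks, 1 (9.09%, interval 0.230 to 41.3%) lacked a Jurkat counterpart, while the background over the whole list was 31.9%. The Jurkat interval only just includes the background, at its lower end, and the RPMI-8402 interval includes it too. Peaks of the same strength class, 10 classes of −log10 q within each list, were shared at rates that would give 12.7 shared peaks among these 22, and 10 were found. In RPMI-8402 the same reckoning gave 8.33 of 11, and 10 were found. With both lists limited to −log10 q of at least 10, the Jurkat share without a partner was 4 of 14 (28.6%, 8.39 to 58.1%). That was close to the 26.1% of all Jurkat peaks in the same setting. With only the Jurkat list limited, the share was again 28.6%, against 19.4% of all Jurkat peaks. The interval is wide and includes both backgrounds, so these 14 peaks do not settle whether the stronger peaks differ from the list.

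**Figure D1:**
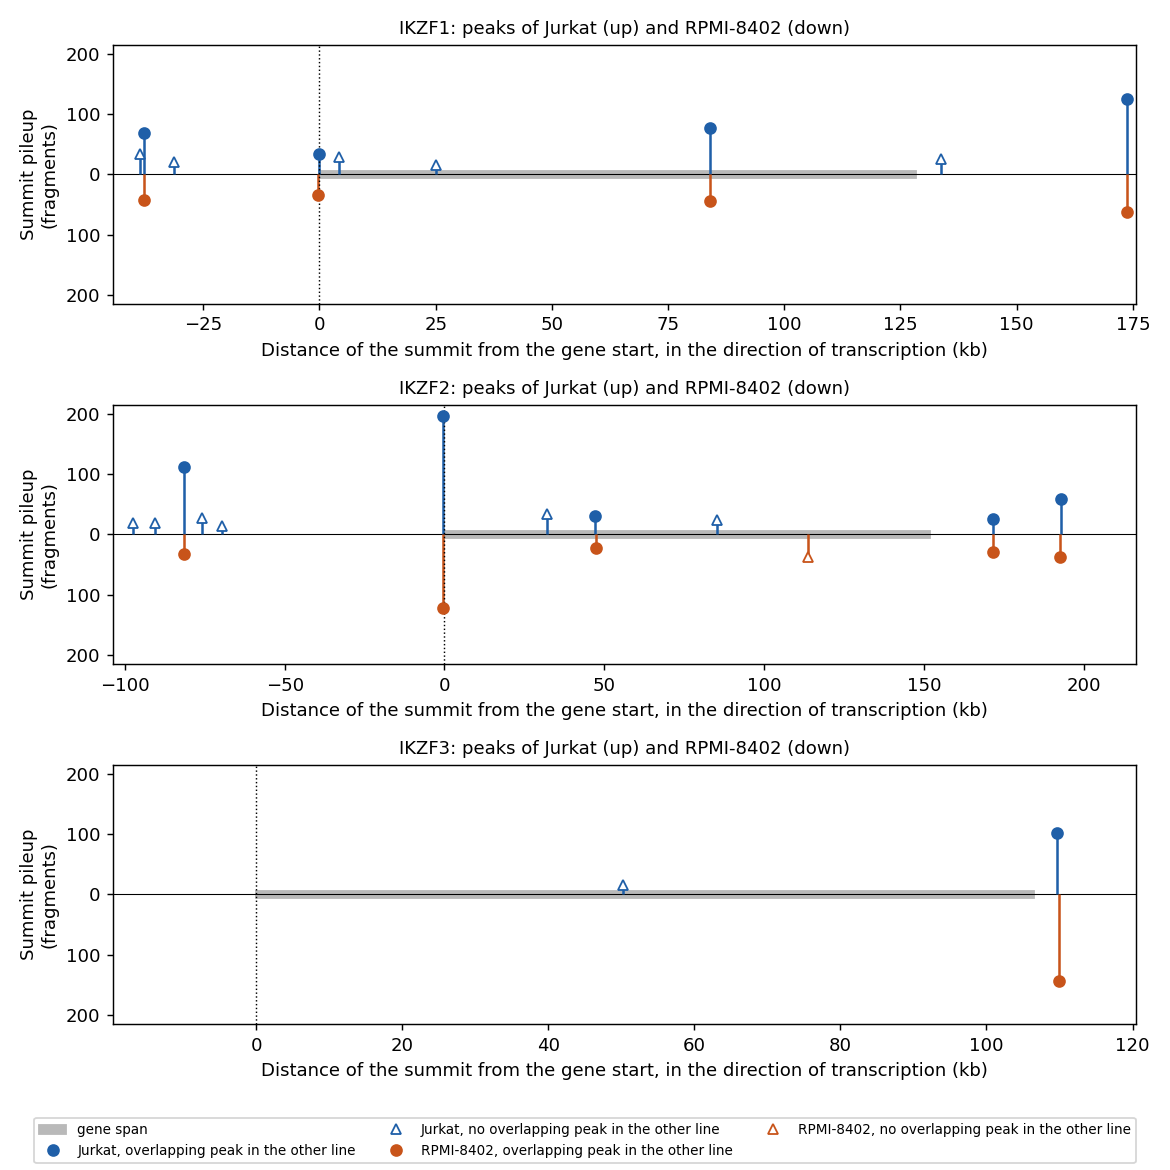
Summit pileup in fragments (Jurkat upward, RPMI-8402 downward) against the distance of each summit from the gene start in kb, along the direction of transcription, with the gene span as a grey bar and open triangles for peaks without an overlapping peak in the other line. The starts of IKZF1 and IKZF2 carry a peak in both lines, the start of IKZF3 carries none, and 12 of the 13 open triangles are Jurkat peaks.

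At IKZF1, the start was accessible in both lines at the same height, and stronger peaks lay away from it. IKZF1 is read in the plus direction from position 50344378 of chromosome 7 to 50472798. The peak over the start spanned 50343810 to 50344484 in Jurkat and 50343665 to 50344666 in RPMI-8402, with summits 185 and 361 bp upstream. Its summit pileup, the number of fragments over the highest base, was 34 in each line (95% exact Poisson interval 23.5 to 47.5). That height was near the middle of both lists, at percentile 47.1 in Jurkat and 45.9 in RPMI-8402. The deposited fold enrichment, the pileup over the local background as the authors' caller gave it, was 4.59 and 4.71, below the list medians of 7.76 and 7.27.

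The other shared peaks of the IKZF1 window had higher pileups in Jurkat. An upstream peak 37.7 kb before the start (50306299 to 50307224 in Jurkat) reached 69 fragments in Jurkat and 43 in RPMI-8402. A peak inside the gene, 84.0 kb after the start (50427729 to 50428665), had 77 and 45. The tallest peak of the window, 124 in Jurkat and 62 in RPMI-8402, lay 45.2 kb past the end of the gene (50517628 to 50518585). FIGNL1, which encodes an ATPase of DNA repair, is the next protein-coding gene on that side in RefSeq, and which gene this peak belongs to was not determined.

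Jurkat had 5 further IKZF1 peaks with no RPMI-8402 partner. The first, 38.5 kb upstream, had a pileup of 33 and lay 350 bp from the nearest RPMI-8402 peak, the shared upstream one. Another, 31.2 kb upstream, had 20. Inside the gene, peaks 4.13 and 25.2 kb after the start had 28 and 16, and a peak 5.36 kb past the gene's end had 26. All 5 were lower than the lowest shared Jurkat peak of the window, at 34. The RPMI-8402 list had 0 peaks of its own there.

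The IKZF1 span measures 128421 bases on hg19, as given with the windows, and 101647 in the RefSeq table on GRCh38.p14. Distances inside it therefore hold for hg19 only.

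IKZF2 had the tallest peak of the family at its start in Jurkat, and that peak was also tall in RPMI-8402. The gene is read in the minus direction from position 214016333 of chromosome 2 to 213864411. The start peak spanned 214016217 to 214017125 in Jurkat and 214016246 to 214017193 in RPMI-8402, with summits 340 and 403 bp upstream. Jurkat had 197 fragments at its summit (170 to 227) and RPMI-8402 had 122 (101 to 146). These values stood at percentiles 96.0 and 90.8 of their lists. The fold enrichment was 12.3 and 9.66, above the list medians.

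The largest difference in pileup between the lines at any of the 10 shared peaks lay upstream of IKZF2. The peak 81.6 kb before the start (214097519 to 214098253 in Jurkat, 214097526 to 214098276 in RPMI-8402) was covered by 112 fragments in Jurkat (92.2 to 135) against 32 in RPMI-8402 (21.9 to 45.2). It ranked at percentile 84.4 in Jurkat and 43.3 in RPMI-8402. The summits lay 22 bp apart, so the same site was compared. In Jurkat, 4 peaks without a partner flanked it, at 69.8, 75.9, 90.5 and 97.3 kb before the start, with pileups of 14, 27, 18 and 19. Beyond the start peak and this one, the RPMI-8402 list had no upstream peak in the window. SPAG16, a gene of the sperm and cilium axoneme, is the next protein-coding gene on this side in RefSeq, and which gene these peaks act on was not tested.

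Inside IKZF2 each line had peaks of its own. A shared peak 47.2 kb after the start reached 30 fragments in Jurkat and 23 in RPMI-8402. Peaks found in Jurkat alone lay 32.1 and 85.3 kb after the start, with 33 and 24. The single member called in RPMI-8402 alone lay 114 kb after the start (213902428 to 213902983), with a pileup of 37 (26.1 to 51.0), a fold of 9.01 and no Jurkat peak within 27781 bp. Past the end of the gene, 19.6 kb away, a shared peak had 25 in Jurkat and 29 in RPMI-8402. A wide shared peak 40.9 kb past the end, 1257 bp across in Jurkat and 1228 bp in RPMI-8402, had 59 and 37.

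IKZF3 had no called peak at its start in either line. The gene is read in the minus direction from position 38020441 of chromosome 17 to 37913968. In Jurkat the nearest peaks left a stretch of 113 kb around the start without a call, and in RPMI-8402 a stretch of 172 kb. Gaps at least this long were common, making up 26.1% of all gaps between neighbouring Jurkat peaks and 18.8% of those in RPMI-8402. These are shares of gaps, and how many gene starts lie in such gaps was not determined. Peaks were called close by, with 45 Jurkat and 41 RPMI-8402 peaks within 1 Mb of the start, so the region as a whole was not empty of calls.

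Inside the IKZF3 span, Jurkat had 1 weak peak and RPMI-8402 had 0. The Jurkat peak lay 50.3 kb after the start (37969808 to 37970370), with a pileup of 15 (8.40 to 24.7), at percentile 11.8 of its list. The strong peak of the window lay outside the gene, 3.12 kb past its end by the Jurkat summit. It spanned 37910057 to 37911166 in Jurkat and 37910152 to 37911201 in RPMI-8402, and its pileup was 102 (83.2 to 124) and 144 (121 to 170). This was the tallest RPMI-8402 peak of the family and the only one of the 10 shared peaks whose ratio interval lay above 1 in favour of RPMI-8402. Its summits were 388 bp apart, more than at any other shared peak of the 3 loci, where the gaps ran from 21 to 176 bp. GRB7, an adaptor protein gene, is the next protein-coding gene on that side in RefSeq, and which gene the peak belongs to was not determined.

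**Figure D2:**
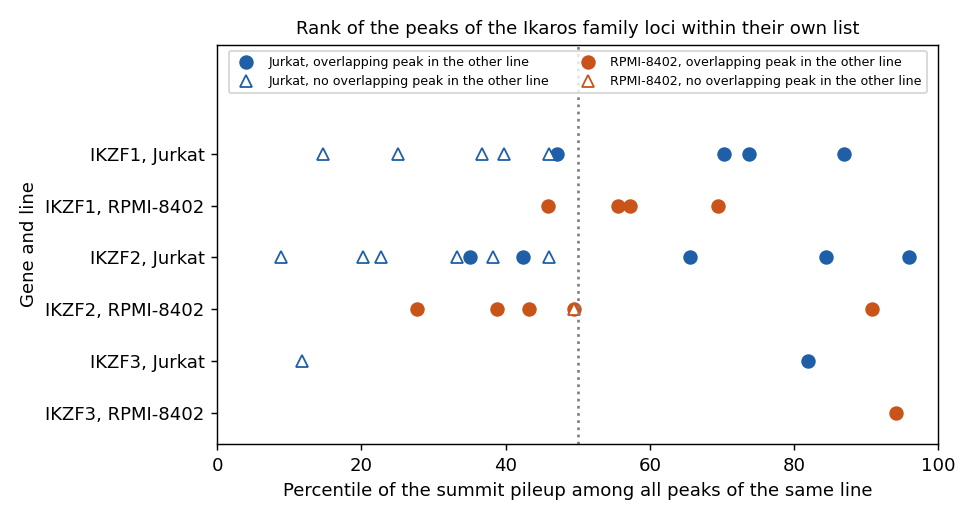
Percentile of each member's summit pileup among all peaks of its own line, by gene and line, with filled circles for peaks that overlap a peak of the other line and open triangles for those that do not. Every Jurkat triangle lies left of the dotted line at the list median, at percentile 46.0 or lower, and the start peaks of IKZF2 reach 96.0 in Jurkat and 90.8 in RPMI-8402.

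The 10 shared peaks formed 10 pairs of 1 Jurkat and 1 RPMI-8402 peak, in which the pileups were set against each other. The log2 ratio of RPMI-8402 to Jurkat was centred on the median of all 16494 such pairs of the genome, −0.17. The 10 pairs had a median of −0.51, and 7 lay below 0 and 3 above, while all pairs ran from −0.40 to 0.46 between the 25th and 75th percentile. The medians were −0.56 over the 4 pairs at IKZF1 and −0.51 over the 5 at IKZF2, and the pair at IKZF3 stood at 0.66. In words, the centred pileup leaned to Jurkat at most shared sites of the IKZF1 and IKZF2 windows. It leaned to RPMI-8402 at the site past the end of IKZF3. Of the 7 pairs below 0, only 4 had a counting interval wholly below 0. The interval of the log2 ratio included 0 at the site 37.7 kb upstream of IKZF1 (−1.10 to 0.05). The same held inside IKZF2, 47.2 kb after the start (−1.07 to 0.61), and 40.9 kb past its end (−1.14 to 0.11).

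Among the 10 pairs, 1 differed by 2-fold or more in favour of Jurkat, where the background over all pairs was 4.98%. No pair was called at least 2-fold higher in RPMI-8402, where the background was 9.13%. The pair called was the site 81.6 kb upstream of IKZF2, 3.12 times as high in Jurkat after scaling (exact conditional binomial interval 2.09 to 4.78), and 0.594% of the genome's pairs lay further toward Jurkat. It was the most extreme of the 10, and its interval and rank make no allowance for that selection. Within the IKZF1 window, the interval also lay on the Jurkat side of 1 inside the gene (1.53, 1.04 to 2.25) and past its end (1.78, 1.30 to 2.46). The same held for the IKZF2 start (1.44, 1.14 to 1.82). The IKZF1 start had a Jurkat to RPMI-8402 ratio of 0.891 (0.538 to 1.48), an interval that includes 1. The IKZF3 site had a RPMI-8402 to Jurkat ratio of 1.58 (1.22 to 2.06).

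The pairs on the surrounding chromosome had medians near 0 and a wide spread. Those within 5 Mb, with the window itself left out, had a median centred log2 ratio of 0.07 around IKZF1 (22 pairs, 25th to 75th percentile −0.57 to 0.46). The values were −0.03 around IKZF2 (35 pairs, −0.76 to 0.41) and 0.12 around IKZF3 (145 pairs, −0.16 to 0.60). The medians of the IKZF1 and IKZF2 windows, −0.56 and −0.51, lay within these ranges. The ranges describe single pairs, which spread more than medians do, so this places the windows only loosely. At IKZF1, the pairs inside the gene (−0.61) and past its end (−0.83) lay below the range. At IKZF2, the site 81.6 kb upstream (−1.64) did. The other pairs of these windows lay within. The IKZF3 pair, at 0.66, lay above its range. Measured against these neighbours, the site upstream of IKZF2 was 3.06 times as high in Jurkat, and the IKZF2 start 1.41 times.

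**Figure D3:**
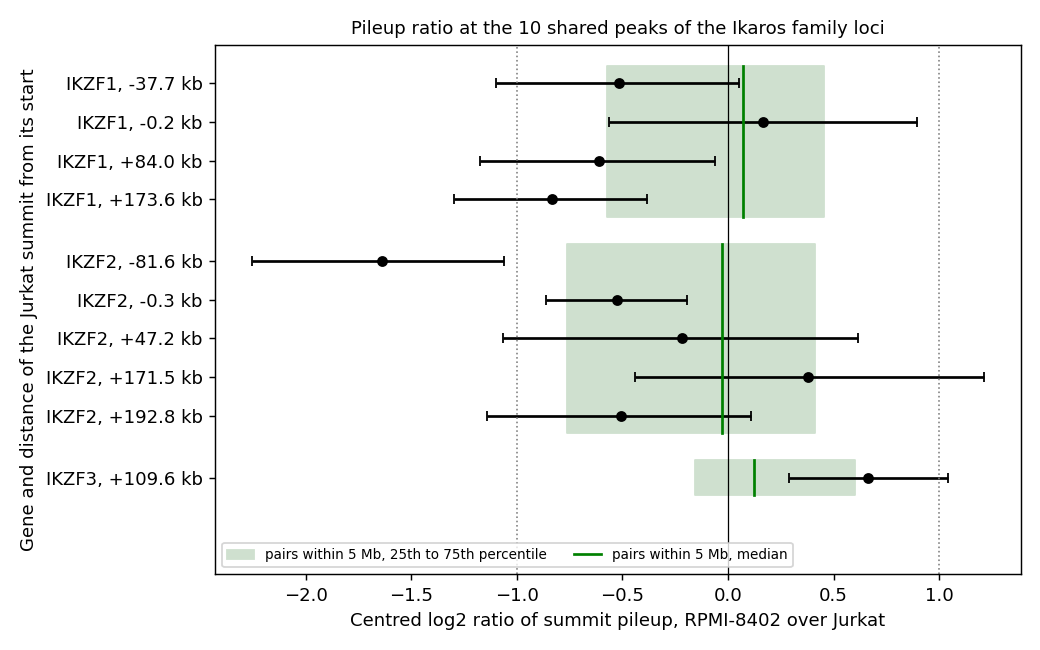
Centred log2 ratio of summit pileup, RPMI-8402 over Jurkat, at the 10 shared peaks with 95% counting intervals; green bands and lines give the 25th to 75th percentile and the median of the pairs within 5 Mb, and dotted lines mark 2-fold. The site 81.6 kb upstream of IKZF2, at −1.64, is the only point beyond a dotted line.

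At 8 of the 10 shared peaks the centred difference was smaller in the deposited fold enrichment than in the pileup, and at the site upstream of IKZF2 the local background differed as much as the pileup did. At the site upstream of IKZF2 the background, in fragments per base, was 8.12 for Jurkat and 2.34 for RPMI-8402, a ratio of 3.48 beside a pileup ratio of 3.50, and the fold was 12.4 and 9.89. At the IKZF2 start the background was 15.1 and 11.7. At the site past IKZF3 it was 10.7 in Jurkat and 20.0 in RPMI-8402, so there the fold, 8.80 and 6.90, was higher in Jurkat although the pileup was higher in RPMI-8402.

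On fold enrichment, centred likewise, the median log2 ratio came to 0.11 at IKZF1, 0.19 at IKZF2 and −0.11 at IKZF3, each opposite in sign to the pileup ratio, and no pair reached 2-fold. Taken as deposited, without centring, the fold was higher in Jurkat at 7 of the 10 pairs, with a median Jurkat to RPMI-8402 ratio of 1.10 at IKZF1, 1.04 at IKZF2 and 1.28 at IKZF3, so at IKZF1 and IKZF2 the opposite sign comes with the centring. An exception in size was the shared peak 19.6 kb past the end of IKZF2, where the centred log2 ratio was 0.56 in fold and 0.38 in pileup and the background was 1.11 times as high in Jurkat. The local background is counted over a wider stretch that can include the peak's own fragments and those of nearby peaks. How much of the pileup differences this accounts for was not tested. The start of IKZF1 had nearly equal values before scaling, with backgrounds of 6.63 and 6.43. It was the other exception in size, with a centred log2 ratio of 0.28 in fold and 0.17 in pileup. Scaled by the genome-wide background, its log2 pileup ratio was −0.30, the opposite sign.

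**Figure D4:**
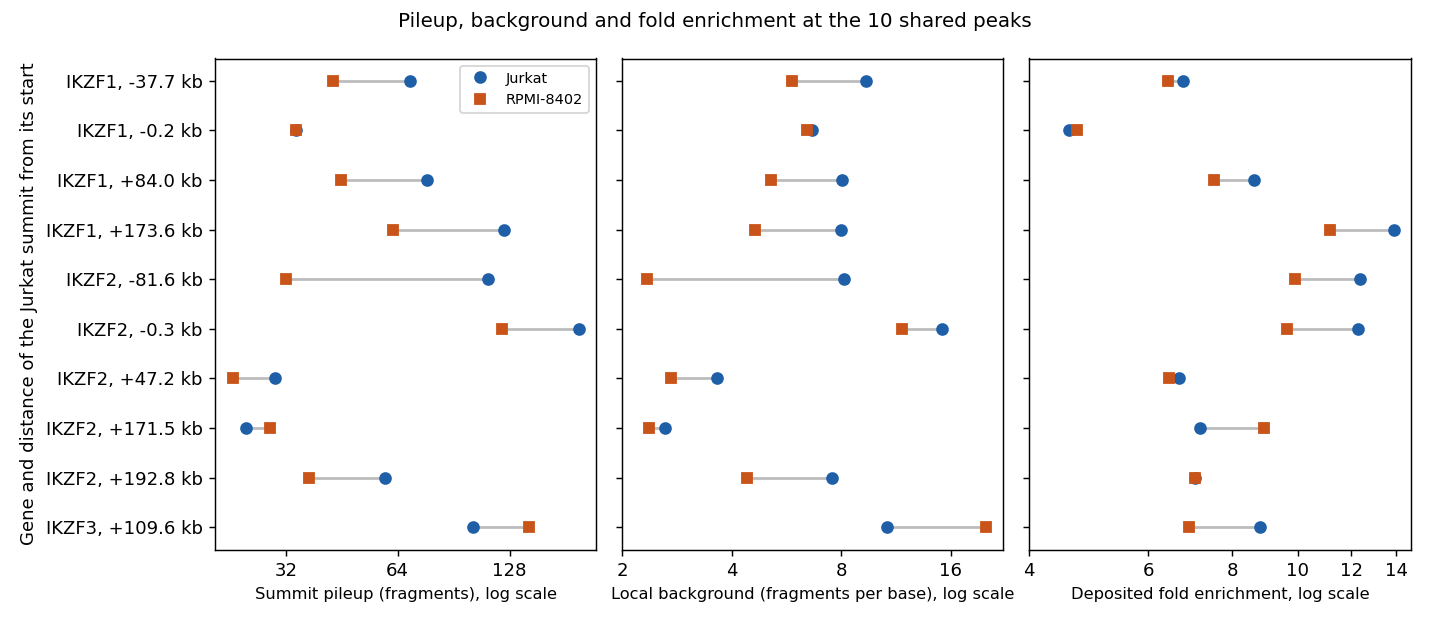
Summit pileup, local background and deposited fold enrichment at the 10 shared peaks, on log axes, with circles for Jurkat and squares for RPMI-8402. The wide gap at the site 81.6 kb upstream of IKZF2 appears in the pileup (112 and 32) and the background (8.12 and 2.34) but is narrow in the fold (12.4 and 9.89).

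The 12 peaks called in Jurkat alone were weak, with pileups from 14 to 33, a median of 22 and widths from 274 to 739 bp. All stood below the median of their list, in strength classes 1 to 5 of 10. Over the whole Jurkat list, 25.4% of class 1 and 63.1% of class 5 peaks had a RPMI-8402 partner, against 98.9% of class 10. Lacking a partner thus went with low strength across the list and was not particular to these loci. The peak 32.1 kb inside IKZF2 and the one 38.5 kb upstream of IKZF1 were the tallest, both at 33. A call in RPMI-8402 needed a pileup of at least 10 at its genome-wide background of 1.96. At the backgrounds found in Jurkat under these peaks it would have needed from 10 to 26. Of the 12, 2 peaks, both at IKZF1, were narrower than the narrowest RPMI-8402 peak of 309 bp. Each of the 12 Jurkat pileups was at or above the value needed at its own background. Examples are 33 against 26, 28 against 20 and 14 against 11. That outcome was all but fixed beforehand, because each peak had already passed a nearly equal p-value threshold in Jurkat. The comparison is therefore no test of the RPMI-8402 sites. A missing call places the RPMI-8402 site below the p-value threshold of the RPMI-8402 list or under its least width, and does not show that it was closed.

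Peaks just outside the windows were left out by position alone. The closest on the upstream side of IKZF2, 29.2 kb beyond the window, had pileups of 162 in Jurkat and 75 in RPMI-8402. Beyond the IKZF3 window on the side of the gene's start, the first peaks had 29 in Jurkat and 70 in RPMI-8402. On the other side of the IKZF3 window, the nearest RPMI-8402 peak lay 3.24 kb out with a pileup of 22.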

How the data were processed

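ATAC-seq libraries of Jurkat and RPMI-8402, 1 per line, were read as paired ends, per the labels' protocols. Per the submitters' processing notes, Bowtie2, Picard, SAMtools, MACS2 2.1.1.2016030 and hg19 were used, with no roles stated. Filters and parameters: not given in the sources used here. For each peak the authors deposited positions, a score, a fold enrichment (a ratio over local background) and −log10 of p- and q-values. The deposited score was not used. Each list belongs to 1 library.

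Pileup and background were solved here from the deposited fold, (pileup + 1) over (background + 1), and the −log10 p-value, taken as the Poisson upper tail, after MACS2's known definitions. The solution was a whole number within 1% of a step in 100% of peaks on chromosomes 1 to 22, X and Y. On simulated lists, which check the solving and not the formula, 100% of 25119 Jurkat and 24579 RPMI-8402 pileups were recovered. The lowest background, 1.59 (Jurkat) and 1.96 (RPMI-8402) fragments per base, was taken as genome-wide. Median pileups were 37 and 38.

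Overlap meant at least 1 bp, checked with bedtools 2.31.1. Ratios used pairs of 1 peak per line. Python 3.11.15, numpy 2.4.6, pandas 2.3.3 and scipy 1.17.1 were used. Gene spans came with the windows. The strand of IKZF3 is general knowledge. Names of neighbouring genes came from RefSeq on GRCh38.p14. Peaks given in full were to be the one at each gene start, the 3 tallest per locus and line, pairs at least 2-fold apart, and the 3 tallest line-only peaks per locus and line; as members were few, nearly all are given. Members and lists were chosen with earlier results of these data known. Marker genes and partners of the family (such as CHD4 and CRBN) were not analysed here, for want of an hg19 annotation. Alternatives varied the peak threshold, overlap, scaling and window.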

Additional observations from a re-analysis of the deposited data

How the results depend on the processing

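Peak numbers were recomputed under other thresholds and a narrower window. At −log10 q of at least 10, IKZF1 held 5 Jurkat and 4 RPMI-8402 peaks, and IKZF2 held 8 and 6. In the same setting IKZF3 held 1 in each line, and the 3 loci together held 14 and 11. Among the 10000 strongest peaks of each list, IKZF1 held 3 Jurkat and 1 RPMI-8402 peaks, and IKZF2 held 2 and 1. IKZF3 held 1 in each line, and the 3 loci together held 6 and 3. Inside the gene spans alone, IKZF1 held 3 and 1, IKZF2 held 3 and 2, IKZF3 held 1 and 0, and together 7 and 3. Jurkat peaks were not fewer than RPMI-8402 peaks at any locus in these settings. The share of Jurkat peaks overlapping a RPMI-8402 peak was 71.4% when both lists were limited to −log10 q 10, and 71.4% when only the Jurkat list was, beside 73.9% and 80.6% of all Jurkat peaks in these settings.

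The median log2 pileup ratio of RPMI-8402 to Jurkat, scaled by the genome-wide background, was −1.03 at IKZF1, −0.97 at IKZF2 and 0.20 at IKZF3. On the deposited fold enrichment, centred on its median over all pairs of −0.24, it was 0.11, 0.19 and −0.11, the opposite sign at each locus. Without centring, a setting chosen after seeing the data, it was −0.14, −0.050 and −0.35. Scaling by the background left 3 pairs that were 2-fold or more higher in Jurkat, unscaled pileups 2 and the deposited fold 0, where 18.5%, 8.49% and 0.315% of all pairs were called in the same settings. The cause of these shifts was not tested beyond the construction of each setting. Of 49 values for single pairs, 10 left the pair's own counting interval, which is wide. The sign changed at 2 pairs under background scaling, which shifts every pair alike by −0.47, and at 5 on the centred fold. No replicate could be left out. No paired analysis was possible because there was a single library of each line. The depth limits missing calls: the weakest peaks of the lists had pileups of 9 (Jurkat) and 10 (RPMI-8402), and a site near those values may go uncalled.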
